A study of Mus musculus with 6 samples.

Results

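The serpins are a family of protease inhibitors and of proteins derived from them, and 51 serpin genes were described here out of 33296 genes with at least 1 count. They are the genes whose symbol starts with Serpin; 58 symbols did, of which 4 pseudogene symbols and, by name, Serpinc1, Serpind1 and Serpinf2 were left out. The 51 genes fall into 7 clades, named by the letter in the symbol: 23 in clade A, 20 in clade B, 3 in clade E, 2 in clade I and 1 each in clades F, G and H. RNA was sequenced from 6 tumours of HCA-1, a line of mouse liver cancer cells, of which 1000000 had been placed under the liver capsule of male C3H mice aged 6 to 8 weeks. The TSDP group, 3 libraries, came from mice that received nanoparticles that carried DNIC, a nitric oxide donor, and sorafenib, a kinase inhibitor, by 6 intravenous injections between day 10 and day 23. The Control group, 3 libraries, was untreated, and the labels name no empty carrier. Tumours of both groups came from the same cell line, were taken on day 24 and grew within host liver. The labels give the replicates as separate samples and no more, and the p-values rest on the spread among them.

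Most serpins are suicide inhibitors. A flexible reactive centre loop near the end of the protein is offered to the protease as bait; once the bond after the loop residue called P1 is cut, the loop slides into the body of the serpin and the protease is carried along and destroyed. The residue at P1 largely sets which protease is caught. Clade A holds the secreted serpins of blood plasma, most of them made by hepatocytes, which include alpha-1-antitrypsin (the Serpina1 genes), the Serpina3 genes and carriers of steroid and thyroid hormones. Clade B serpins lack a classical secretion signal and act largely inside cells, where they guard against granzymes and lysosomal proteases. Clades E to I hold the protease nexin Serpine2, the complement inhibitor Serping1, neuroserpin and non-inhibitory members such as the collagen chaperone Serpinh1.

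The mouse reference genome carries several copies of Serpina1 and Serpina3 side by side on chromosome 12. The sequences below are shown because the copies differ where they meet a protease. They are the coding stretch of the loop, 66 bases from the GENCODE M21 transcripts (build GRCm38), each within 1 exon on chromosome 12, with codon 13 of the stretch, the one that aligns with P1 of alpha-1-antitrypsin, in capitals. The Serpina1e stretch lies at chr12:103947102-103947167 on the minus strand and that of Serpina3k at chr12:104345275-104345340 on the plus strand.
Serpina1a: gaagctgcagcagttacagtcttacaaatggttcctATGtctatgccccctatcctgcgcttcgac
Serpina1b: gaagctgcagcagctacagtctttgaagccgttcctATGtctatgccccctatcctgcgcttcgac
Serpina1c: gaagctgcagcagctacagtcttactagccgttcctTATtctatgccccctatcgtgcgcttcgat
Serpina1d: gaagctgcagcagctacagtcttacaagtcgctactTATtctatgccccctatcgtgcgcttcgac
Serpina1e: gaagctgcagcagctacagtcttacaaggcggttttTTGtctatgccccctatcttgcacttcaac
Serpina3k: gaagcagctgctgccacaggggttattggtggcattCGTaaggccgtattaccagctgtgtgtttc
Serpina3m: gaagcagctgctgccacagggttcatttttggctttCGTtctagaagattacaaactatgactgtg
Serpina3n: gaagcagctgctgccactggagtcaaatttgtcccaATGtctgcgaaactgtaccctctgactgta
The codon at P1 was ATG in Serpina1a and Serpina1b, TAT in Serpina1c and Serpina1d, and TTG in Serpina1e. At the aligned place it was CGT in Serpina3k and Serpina3m and ATG in Serpina3n. All of these sequences are of the reference build. Whether the C3H mice and HCA-1 cells carry the same copies and codons was not tested. Over the whole coding sequence, Serpina1b, Serpina1c, Serpina1d and Serpina1e were 96.3% to 96.7% identical to each other. Serpina1a, with a longer coding sequence, was 91.4% to 93.3% identical to them. Serpina3k shared 91% with Serpina3m and 82.7% with Serpina3n.

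Total counts lay between 36376925 and 36629665 in the TSDP libraries and between 32130808 and 38953397 in the Control libraries. With edgeR's quasi-likelihood test, 0 of 17423 genes passed an adjusted p of 0.05 (smallest 0.326), while 1499 were higher and 827 lower in TSDP at an unadjusted p under 0.05, DESeq2 called 620 and limma-voom called 0. A list of 16 hepatocyte markers that holds no serpin took 3.10, 5.47 and 1.93% of counts in TSDP 1, 2 and 5, against 0.0134, 1.80 and 0.383% in Control 3, 4 and 5. The means were 3.5% ± 1.8 in TSDP and 0.733% ± 0.944 in Control (SD, n = 3 each), and a two-sided exact permutation test gave p = 0.1, its lowest possible value for 3 against 3. Control 3 thus carried almost no hepatocyte RNA. Control 4 stood apart in another way, as 14 genes of pancreatic acinar cells, a list drawn up after its values were seen, took 1.39% of its counts and at most 0.00178% in any other library. What these contents contributed to the serpin values was not tested, except where values with and without a library or relative to the markers are given. Tumour pieces are mixtures, so fewer cells of a type and less RNA per cell cannot be told apart.

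Liver-type clade A genes had the largest differences between the groups, and clade B genes had log2 fold changes between -0.69 and 0.15. Of the 51 serpins, 38 had enough counts to be tested, and 0 of them passed an edgeR adjusted p of 0.05, against 0% of all genes tested. In the fit, 26 of the 38 had a positive log2 fold change (TSDP over Control), as did 47.3% of all genes tested. Their median was 0.52, that of the 18 tested clade A genes 2.34, that of the 14 tested clade B genes -0.22, and that of all genes -0.02. These counts and medians turn on single libraries: without Control 4 the clade A median was 4.19 and 21 serpins were higher at an unadjusted p under 0.05, where 13.4% of all genes were, and without TSDP 2 they were 1.76 and 1, where 4.04% were. In the full set, at an unadjusted p under 0.05 there were 4 serpins higher (Serpinf1, Serpina12, Serpina7 and Serpina6), where 8.6% of all genes were, and 2 lower, Serpinb9g among them, where 4.75% of all genes were. The values of the groups did not overlap for 11 of the 38 as higher in TSDP, against 13% of all genes tested, and for 1, Serpinb9g, as lower, against 8.76%. Clade A supplied 10 of the 11 and Serpinf1 was the other. DESeq2 called 2 serpins, Serpinf1 and the low-count Serpina9, both higher in TSDP, against 2.98% of the 18366 genes it gave an adjusted p; it called 0.397% of those lower and 0 serpins.

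**Figure D1:**
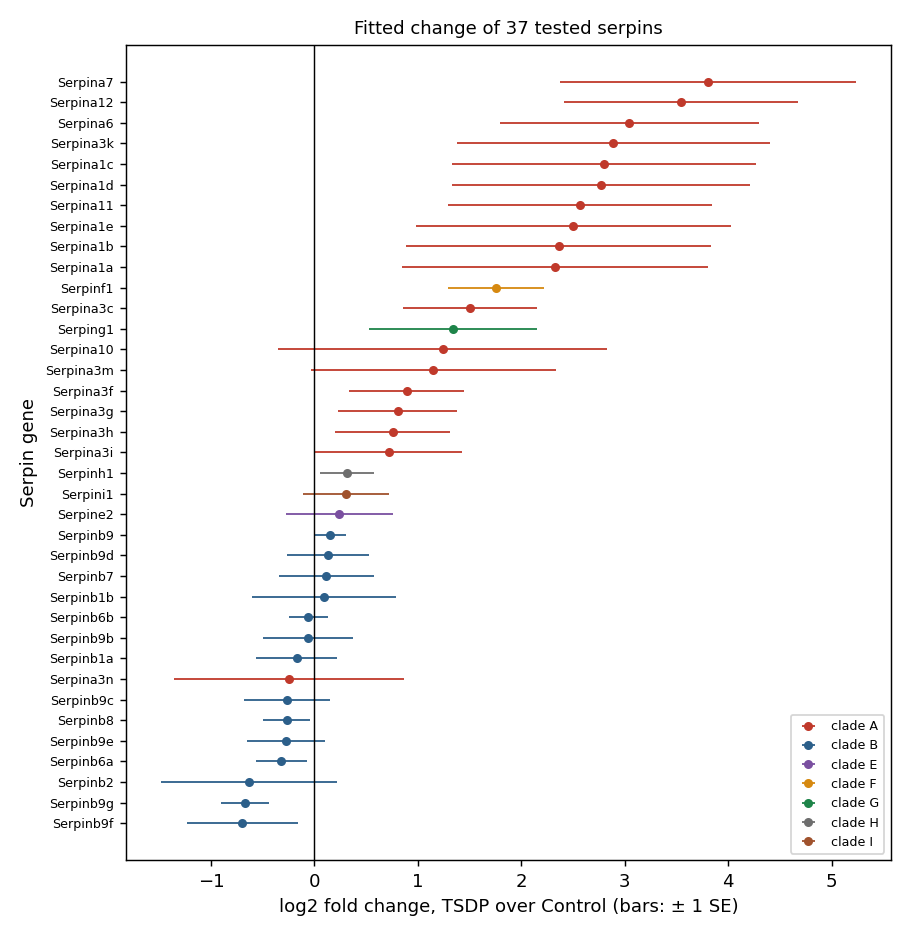
Log2 fold change of TSDP over Control (horizontal axis) for 37 of the 38 tested serpins, ordered by value, with bars of 1 SE and colours by clade. Clade A genes fill the top of the order, from 3.80 for Serpina7, with wide bars, while most clade B genes lie near or below 0.

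Alpha-1-antitrypsin, summed over 5 Serpina1 copies, was the most counted serpin product described here in the TSDP libraries and in Control 4. In Control 3 and Control 5 the 5 copies together had 494 and 19523 counts, fewer than the 29878 and 29587 of Serpinb6a. Serpina1e (ENSMUSG00000072849) had 3664, 7189 and 2419.5 CPM in TSDP 1, 2 and 5, against 10.0, 2035 and 296 CPM in Control 3, 4 and 5. Each TSDP library lay above each Control library, and the nearest pair was TSDP 5 and Control 4. Its log2 fold change was 2.50 ± 1.52 (± SE; adjusted p = 0.496, edgeR). Serpina1b (ENSMUSG00000071178), a copy with the ATG codon at P1, had 846, 1563 and 535 CPM in TSDP 1, 2 and 5, against 2.50, 487 and 84.4 CPM in Control 3, 4 and 5. Serpina1d had 356, 658 and 244 CPM in TSDP 1, 2 and 5, against 0.988, 156 and 28.0 CPM in Control 3, 4 and 5, and again the groups did not overlap, with Control 3 far below the rest. Serpina1c showed the same order at lower values, 197, 378 and 119.8 CPM in TSDP 1, 2 and 5, against 0.309, 80.2 and 19.4 CPM in Control 3, 4 and 5. Serpina1a was the exception, since TSDP 5 lay just under Control 4: 479, 998 and 292 CPM in TSDP 1, 2 and 5, against 1.42, 293 and 57.8 CPM in Control 3, 4 and 5. The 5 copies had log2 fold changes between 2.33 and 2.80, with SE of 1.44 to 1.52 and edgeR adjusted p of 0.445 to 0.513. Without Control 4 they lay between 4.31 and 4.85. Serpina1f, a copy known from the epididymis, had 1 count, in TSDP 5.

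Shares of the copies varied far less between libraries than their sum. Together the 5 copies had 202338, 373252 and 129381 counts in TSDP 1, 2 and 5, against 494, 99480 and 19523 counts in Control 3, 4 and 5. Of these counts, Serpina1e took 66.1, 66.6 and 67.0% in TSDP 1, 2 and 5, against 65.8, 66.7 and 60.9% in Control 3, 4 and 5. That share was lowest in Control 5. Serpina1b took 15.3, 14.5 and 14.8% in TSDP 1, 2 and 5, against 16.4, 16.0 and 17.4% in Control 3, 4 and 5, and Serpina1a 8.64, 9.26 and 8.08% in TSDP 1, 2 and 5, against 9.31, 9.60 and 11.9% in Control 3, 4 and 5. The copies with TAT at P1 were the rarest: Serpina1d held 6.42% ± 0.327 of the sum in TSDP and 5.78% ± 0.685 in Control, and Serpina1c 3.46% ± 0.123 in TSDP and 2.88% ± 1.01 in Control (SD, n = 3 each). Reads can be lost or shared between such copies, so these shares are uncertain. How well reads of HCA-1 tumours in C3H mice match the reference copies was not tested either. Of all 100-base runs in the transcripts of Serpina1c, 58.5% also occurred in another gene. The share was 42.8% for Serpina1a, 29.3% for Serpina1d, 14.8% for Serpina1b and 14.4% for Serpina1e. For each copy, the genes that shared the most runs were other Serpina1 copies.

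Per length of exon, the scale on which genes can be set beside each other, Serpina1e led in both groups, at a mean of 2736 CPM per kilobase in TSDP and 483 in Control. Serpina3k came next, at 1423 in TSDP and 192 in Control. The third level was that of Serpina1b in TSDP, 406 CPM per kilobase, and of Serpina3n in Control, 166. Serpinb6a, the first of clade B, ranked 9 in TSDP at 117 and 4 in Control at 146 CPM per kilobase. This order is of group means and did not hold in Control 3. There Serpina1e had 10.0 CPM over 1617 exon bases, against 923 CPM over 5409 bases for Serpinb6a. Among the first 9 in TSDP, neighbours in this order overlapped over the libraries except Serpina3k and Serpina1b, and among the first 5 in Control all neighbours overlapped.

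**Figure D2:**
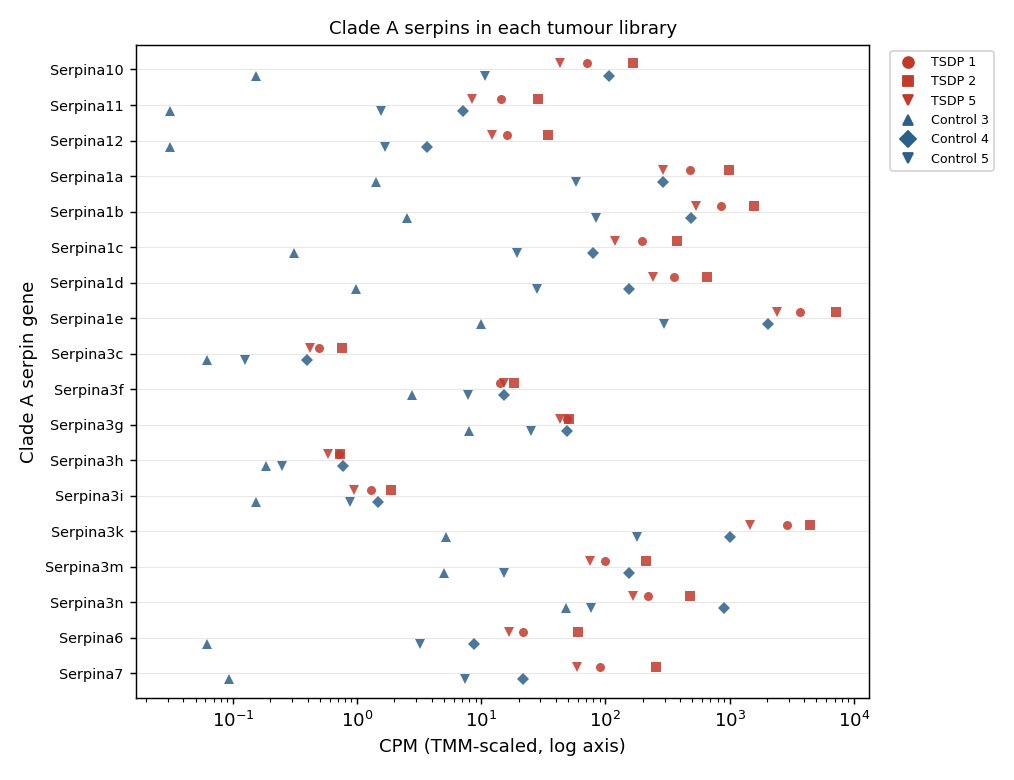
CPM of the 18 tested clade A serpins on a log axis, with TSDP libraries in red above Control libraries in blue for each gene. Control 3 holds the lowest point for each gene, and Control 4 the highest for Serpina3n, at 900.3 CPM, and for Serpina3h.

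The Serpina3 copies, mouse relatives of human alpha-1-antichymotrypsin, split into liver-type, acute-phase and low-level members. Serpina3k, known as a kallikrein-binding protein made by liver, had 2897, 4427 and 1458 CPM in TSDP 1, 2 and 5, against 5.19, 1000.4 and 179 CPM in Control 3, 4 and 5. No Control library reached the TSDP range, and the log2 fold change was 2.89 ± 1.51 (± SE; adjusted p = 0.447, edgeR). Serpina3m, its closest relative here, had 99.6, 212 and 75.4 CPM in TSDP 1, 2 and 5, against 4.97, 154 and 15.2 CPM in Control 3, 4 and 5, and Control 4 lay within the TSDP range. The annotated genes of Serpina3m and Serpina3k start at the same base, and 6.09% of its 100-base runs occurred in Serpina3k. Serpina3n (ENSMUSG00000021091), an inducible inhibitor of the acute-phase response, had 219.5, 480.4 and 166 CPM in TSDP 1, 2 and 5, against 47.9, 900.3 and 77.2 CPM in Control 3, 4 and 5. Its highest value was in Control 4, and the other Control libraries held its lowest. Its log2 fold change was -0.24 ± 1.11 (± SE; adjusted p = 0.934, edgeR), and without Control 4 it was 2.20 ± 0.54 (± SE; adjusted p = 0.183, edgeR). Its sign also turned without TSDP 5, at 0.03, and with limma-voom, at 0.79, so it has no settled direction. Of all Serpina3 counts, Serpina3n was 6.69%, 9.25% and 9.42% in TSDP 1, 2 and 5, against 69.2%, 42.4% and 25.3% in Control 3, 4 and 5, without overlap. Counts of Serpina3n per count of Serpina3k were 0.0758, 0.109 and 0.114 in TSDP 1, 2 and 5, against 9.24, 0.900 and 0.431 in Control 3, 4 and 5, so the ratio was lower in each TSDP library. Serpina3k, which makes up most Serpina3 counts in TSDP, ran from 168 counts in Control 3 to 153186 in TSDP 2. Relative to hepatocyte marker counts, 64.4% of all genes tested were lower in TSDP without overlap. Lower values of this share and ratio therefore do not set Serpina3n apart.

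Genes of the acute-phase response give the setting of Serpina3n in Control 4. Saa2, a serum amyloid A gene, had 6.03, 50.2 and 8.79 CPM in TSDP 1, 2 and 5, against 0.154, 484 and 3.01 CPM in Control 3, 4 and 5. Lcn2, lipocalin 2, had 33.2, 124 and 31.3 CPM in TSDP 1, 2 and 5, against 3.18, 335 and 24.2 CPM in Control 3, 4 and 5, and Orm2, an orosomucoid, 8.98, 37.8 and 5.44 CPM in TSDP 1, 2 and 5, against 0.247, 197 and 3.16 CPM in Control 3, 4 and 5. All 3 were highest in Control 4, next in TSDP 2, and lowest in Control 3; Lcn2 and Orm2 are named because of their Control 4 values. Hp, haptoglobin, was instead highest in TSDP 2: 1002, 2208 and 591 CPM in TSDP 1, 2 and 5, against 6.46, 1715 and 162 CPM in Control 3, 4 and 5. Of the 13 acute-phase genes, all tested, 5 had a positive and 8 a negative log2 fold change, with a median of -0.08 and 0 past the threshold. Saa3 and Saa2 had the smallest p on the negative side, with log2 fold changes of -1.30 ± 0.70 (± SE; adjusted p = 0.458, edgeR) and -2.91 ± 2.30 (± SE; adjusted p = 0.594, edgeR), and Cebpb, a transcription factor of this response, on the positive side, 0.23 ± 0.23 (± SE; adjusted p = 0.670, edgeR). The regulators Stat3 and Socs3 had log2 fold changes of -0.07 ± 0.14 and -0.08 ± 0.09 (SE).

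**Figure D3:**
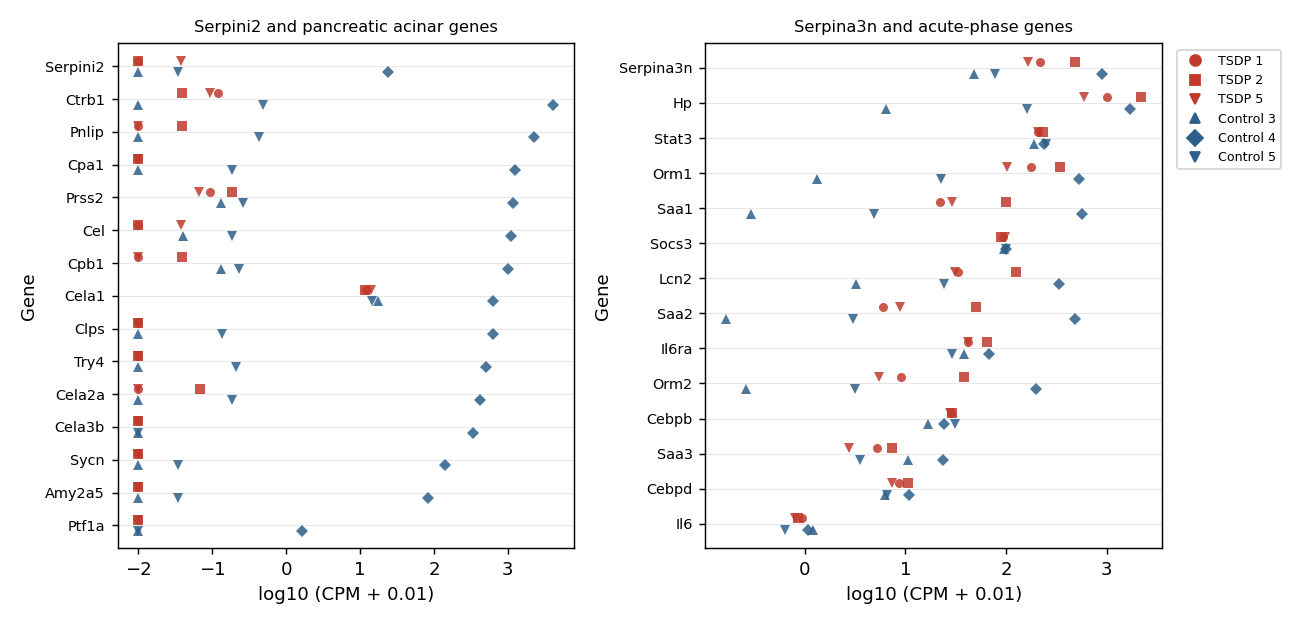
Left, Serpini2 with 14 pancreatic acinar genes, and right, Serpina3n with 13 acute-phase genes, as log10 of CPM plus 0.01 in each library. Control 4 (blue diamonds) lies alone at the right end of every row on the left, and on the right it is the highest library for Serpina3n, Saa1, Saa2, Saa3, Lcn2, Orm1 and Orm2 and, by a small margin, Il6ra and Cebpd.

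Serpina3g and Serpina3f spanned a narrower range than the liver-type copies. Serpina3g, an intracellular inhibitor of lysosomal cathepsins in leukocytes, had 48.9, 51.2 and 43.4 CPM in TSDP 1, 2 and 5, against 8.03, 49.0 and 25.2 CPM in Control 3, 4 and 5. Serpina3f had 14.1, 18.3 and 15.2 CPM in TSDP 1, 2 and 5, against 2.75, 15.1 and 7.76 CPM in Control 3, 4 and 5. In both, Control 3 was lowest, Control 5 was next, and Control 4 lay within the TSDP range. Their log2 fold changes were 0.80 ± 0.58 (± SE; adjusted p = 0.558, edgeR) and 0.89 ± 0.56 (± SE; adjusted p = 0.508, edgeR). Without Control 4 they were 1.52 and 1.59, and without Control 3 they were 0.35 and 0.46, in the same order. Markers of cytotoxic lymphocytes, 0.00715, 0.00783 and 0.00658% of counts in TSDP 1, 2 and 5, against 0.00248, 0.00823 and 0.00812% in Control 3, 4 and 5, were also lowest in Control 3. Serpina3h, Serpina3i and Serpina3c stayed under 2 CPM in each library, and of these Serpina3c did not overlap between the groups, with 0.493, 0.751 and 0.419 CPM in TSDP 1, 2 and 5, against 0.0618, 0.399 and 0.124 CPM in Control 3, 4 and 5. Serpina3i had 1.29, 1.88 and 0.949 CPM in TSDP 1, 2 and 5, against 0.154, 1.47 and 0.870 CPM in Control 3, 4 and 5, and its groups overlapped through Control 4.

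Among the other clade A genes, 3 had the largest fitted log2 fold changes of the family: Serpina7, Serpina12 and Serpina6. Serpina7 (ENSMUSG00000031271), thyroxine-binding globulin, encoded on the X chromosome, had 90.2, 255 and 59.4 CPM in TSDP 1, 2 and 5, against 0.0927, 21.6 and 7.36 CPM in Control 3, 4 and 5. Every TSDP library exceeded every Control library, and the log2 fold change was 3.80 ± 1.43 (± SE; adjusted p = 0.362, edgeR). Serpina12 (ENSMUSG00000041567), vaspin, an adipokine that inhibits kallikrein 7, had 16.1, 34.5 and 12.2 CPM in TSDP 1, 2 and 5, against 0.0309, 3.65 and 1.69 CPM in Control 3, 4 and 5. Its groups did not overlap, with a log2 fold change of 3.55 ± 1.13 (± SE; adjusted p = 0.334, edgeR). Serpina6, corticosteroid-binding globulin, had 21.7, 60.5 and 16.8 CPM in TSDP 1, 2 and 5, against 0.0618, 8.71 and 3.23 CPM in Control 3, 4 and 5, without overlap and with a log2 fold change of 3.04 ± 1.25 (± SE; adjusted p = 0.373, edgeR). Serpina11, which has no settled target, had 14.5, 28.5 and 8.45 CPM in TSDP 1, 2 and 5, against 0.0309, 7.11 and 1.57 CPM in Control 3, 4 and 5, also without overlap; 32.8% of its 100-base runs occurred in another annotated gene, so its counts are uncertain. Serpina10, the inhibitor that works with protein Z against coagulation factor X, did overlap: 71.6, 165 and 43.1 CPM in TSDP 1, 2 and 5, against 0.154, 108 and 10.7 CPM in Control 3, 4 and 5. Control 4 exceeded both TSDP 1 and TSDP 5 there. Its log2 fold change, 1.24 ± 1.59 (± SE; adjusted p = 0.748, edgeR), was 4.09 without Control 4 and 0.52 without TSDP 2. For Serpina11 it was 4.38 without Control 4.

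Read against the hepatocyte markers, the clade A sum was similar in the TSDP libraries and Control 4, lower in Control 5 and high in Control 3. Summed clade A gave 9038, 16523 and 5509.8 CPM in TSDP 1, 2 and 5, against 84.9, 5321 and 815 CPM in Control 3, 4 and 5. Per 1000 hepatocyte marker counts, the sum was 290.4, 286 and 281 in TSDP 1, 2 and 5, against 631, 299.8 and 219.7 in Control 3, 4 and 5. Control 3 had few hepatocyte marker counts, 4356, and Serpina3n alone stood at 356 per 1000 of them. Of these 4356 counts, 1112 were of Hal, against 2054 of 1136404 in TSDP 1. Hal had 34.4, 40.7 and 19.5 CPM in Control 3, 4 and 5, while Alb had 62.7, 10350 and 1993 CPM there. Values per 1000 marker counts in Control 3 are lower for including Hal, and they were not recomputed without it. Single genes did not all share the pattern of the sum. Serpina7 per 1000 marker counts was 2.90, 4.40 and 3.03 in TSDP 1, 2 and 5, against 0.689, 1.21 and 1.98 in Control 3, 4 and 5. Serpina12 was 0.518, 0.597 and 0.621 in TSDP 1, 2 and 5, against 0.230, 0.206 and 0.455 in Control 3, 4 and 5. Serpina3k was 93.1, 76.6 and 74.4 in TSDP 1, 2 and 5, against 38.6, 56.4 and 48.2 in Control 3, 4 and 5, and Serpina1d 11.4, 11.4 and 12.4 in TSDP 1, 2 and 5, against 7.35, 8.78 and 7.53 in Control 3, 4 and 5. For each of these 4 the groups did not overlap, as also for Serpina1c, Serpina1e and Serpina11, 7 of 18 tested clade A genes higher in TSDP, against 0.746% of all genes tested, a background of genes from all cell types. In Control 3 these values rest on 1 count each for Serpina11 and Serpina12, 3 counts for Serpina7 and 10 counts for Serpina1c. The hepatocyte markers themselves, 16 of 16 with positive log2 fold changes, had a median of 2.66, against 2.34 for the tested clade A genes. A count of this kind was not made for other hepatocyte genes, so these 7 serpins are not shown to stand apart from them. Per 1000 marker counts, Serpina3n was lower in each TSDP library, at 7.05, 8.31 and 8.46 in TSDP 1, 2 and 5, against 356, 50.7 and 20.8 in Control 3, 4 and 5. Another 6 Serpina3 copies, Serpina3c, Serpina3f, Serpina3g, Serpina3h, Serpina3i and Serpina3m, were also lower without overlap, as were 64.4% of all genes tested, so lower values by this measure do not set these genes apart. These ratios carry no test.

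**Figure D4:**
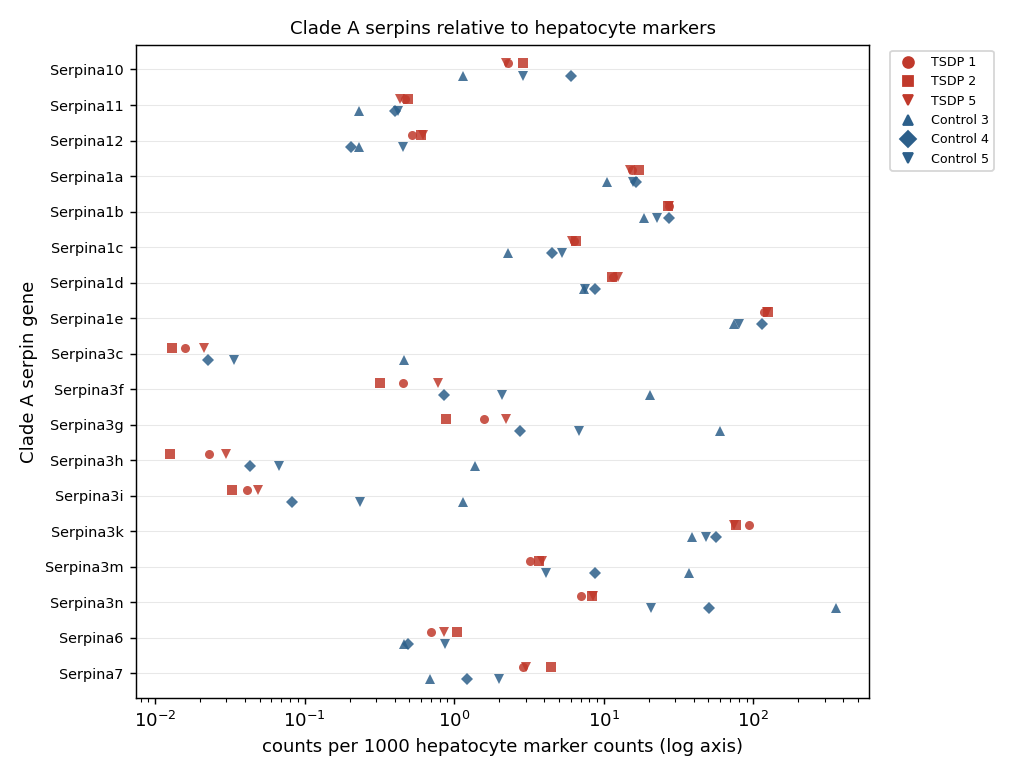
Counts of each tested clade A serpin per 1000 counts of the 16 hepatocyte markers, on a log axis, with TSDP libraries in red above Control libraries in blue. The red points of Serpina7, Serpina12, Serpina3k and Serpina1d lie right of the blue ones, those of Serpina3n lie left, and those of Serpina1a and Serpina1b overlap.

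Library order can be compared without regard to the size of the differences, though it rests on the scaling of each library. From high to low, the hepatocyte marker share ran TSDP 2, TSDP 1, TSDP 5, Control 4, Control 5, Control 3. Of the 18 tested clade A genes, 10 had exactly this order in CPM, as did Serpinf1, and 0 of 14 clade B genes did. Over all genes tested the share with this order was 5.57%. Among liver regulators, Hnf4a, the nuclear receptor that maintains hepatocyte identity, had 148, 275 and 100.3 CPM in TSDP 1, 2 and 5, against 0.587, 85.3 and 13.4 CPM in Control 3, 4 and 5. All 8 genes of that list had positive log2 fold changes, with a median of 1.83, and 0 passed the threshold. Their smallest p belonged to Cebpa, a hepatocyte differentiation factor, at 1.40 ± 0.40 (± SE; adjusted p = 0.326, edgeR), and Nr1h4, the bile acid receptor, at 2.05 ± 0.88 (± SE; adjusted p = 0.386, edgeR).

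Rare clade A members were too low to test. Serpina9, known from germinal centre B cells, had 19, 50 and 9 counts in TSDP 1, 2 and 5, against 0, 0 and 5 counts in Control 3, 4 and 5. Its DESeq2 adjusted p was 0.0395, with a log2 fold change of 4.05 ± 1.24 (SE), and edgeR did not test it at the filter used. Beside it, markers of B and plasma cells took 0.00125, 0.00583 and 0.00410% of counts in TSDP 1, 2 and 5, against 0.000123, 0.000367 and 0.000544% in Control 3, 4 and 5; their part in the Serpina9 counts was not tested. Serpina5, protein C inhibitor, had 16, 17 and 4 counts in TSDP 1, 2 and 5, against 0, 2 and 3 counts in Control 3, 4 and 5, and the groups did not overlap. Serpina1f, Serpina3a and Serpina3b had at most 6 counts in any library, and Serpina1f and Serpina3b had 0 in each Control library. A count of 0 allows a level of up to 0.0927 CPM in Control 3, and these limits cover counting error only.

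Clade B serpins were led by Serpinb6a, an intracellular inhibitor of cathepsin G and trypsin-like proteases. Of the 14 tested, 0 were higher in TSDP without overlap, where 13% of all genes tested were. Their sum was 843, 715 and 1077 CPM in TSDP 1, 2 and 5, against 1163, 992 and 1020.5 CPM in Control 3, 4 and 5, so TSDP 5 lay within the Control range and the other TSDP libraries below it. Serpinb6a (ENSMUSG00000060147) had 611, 464 and 829 CPM in TSDP 1, 2 and 5, against 923, 717 and 735 CPM in Control 3, 4 and 5. TSDP 5 lay within the Control range and the other TSDP values below it, and the log2 fold change was -0.32 ± 0.25 (± SE; adjusted p = 0.588, edgeR). Serpinb8, whose human counterpart inhibits furin, had 76.3, 40.9 and 61.2 CPM in TSDP 1, 2 and 5, against 76.8, 69.0 and 69.1 CPM in Control 3, 4 and 5, and TSDP 2 and TSDP 5 lay below the Control range. Serpinb6b had 49.1, 46.7 and 64.3 CPM in TSDP 1, 2 and 5, against 44.6, 64.1 and 58.0 CPM in Control 3, 4 and 5, with a log2 fold change of -0.06 ± 0.19 (± SE; adjusted p = 0.905, edgeR). Of the 14 tested clade B genes, 10 had negative and 4 positive values, between -0.69 and 0.15.

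Of the Serpinb9 group, Serpinb9 itself overlapped between the groups and Serpinb9g did not. Serpinb9 (ENSMUSG00000045827), which protects cytotoxic lymphocytes and target cells from granzyme B, had 69.6, 70.1 and 77.5 CPM in TSDP 1, 2 and 5, against 52.3, 73.8 and 69.5 CPM in Control 3, 4 and 5. Its log2 fold change was 0.15 ± 0.15 (± SE; adjusted p = 0.675, edgeR). Gzmb, granzyme B itself, had 9.34, 8.67 and 7.87 CPM in TSDP 1, 2 and 5, against 2.93, 6.16 and 10.4 CPM in Control 3, 4 and 5, and Control 3 was lowest for both. Serpinb9g (ENSMUSG00000057726) had 4.11, 3.01 and 3.35 CPM in TSDP 1, 2 and 5, against 6.21, 4.45 and 5.97 CPM in Control 3, 4 and 5, the 1 serpin tested whose groups did not overlap in the lower direction. Its log2 fold change was -0.67 ± 0.23 (± SE; adjusted p = 0.340, edgeR). Serpinb9f had 1.07, 0.867 and 2.37 CPM in TSDP 1, 2 and 5, against 1.76, 1.47 and 3.73 CPM in Control 3, 4 and 5. Serpinb9e had 3.51, 6.07 and 3.88 CPM in TSDP 1, 2 and 5, against 4.29, 3.83 and 8.15 CPM in Control 3, 4 and 5, and both overlapped. These copies are 95% to 98.7% identical in coding sequence, and 52.3% of the 100-base runs of Serpinb9f and 38.5% of those of Serpinb9g occurred in other genes, so their split is uncertain. Serpinb9b ranged from 6.74 to 16.5 CPM in TSDP and from 6.86 to 15.9 CPM in Control, and Serpinb9c from 1.04 to 3.26 CPM in TSDP and from 2.42 to 2.72 CPM in Control.

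Serpinb2 and Serpinb1a, known from myeloid cells, varied within groups. Serpinb2, an inhibitor of urokinase and an induced product of macrophages, had 4.77, 40.6 and 7.84 CPM in TSDP 1, 2 and 5, against 28.8, 12.7 and 40.9 CPM in Control 3, 4 and 5. TSDP 1 and TSDP 5 were lowest while TSDP 2 lay beside Control 5, and the log2 fold change was -0.63 ± 0.85 (± SE; adjusted p = 0.762, edgeR). It was -2.13 without TSDP 2 and -0.19 without TSDP 1. Of the 100-base runs of Serpinb2, 7.52% also occurred in Serpinb10. Serpinb1a, an inhibitor of neutrophil elastase, cathepsin G and proteinase 3, had 9.45, 19.5 and 11.6 CPM in TSDP 1, 2 and 5, against 9.79, 22.3 and 13.6 CPM in Control 3, 4 and 5, a log2 fold change of -0.17 ± 0.39 (± SE; adjusted p = 0.863, edgeR). Neutrophil markers took 0.00179, 0.00244 and 0.00198% of counts in TSDP 1, 2 and 5, against 0.00162, 0.00328 and 0.00446% in Control 3, 4 and 5. Elane, neutrophil elastase, and Ctsg, cathepsin G, stayed under 1 CPM in each library. Prtn3, proteinase 3, had 0.246, 1.39 and 0.391 CPM in TSDP 1, 2 and 5, against 0.556, 3.96 and 0.497 CPM in Control 3, 4 and 5. Serpinb7 ranged from 2.43 to 3.26 CPM in TSDP and from 1.09 to 3.86 CPM in Control. Serpinb1b and Serpinb9d were tested at under 1 CPM on average, and Serpinb1c, Serpinb5, Serpinb6c, Serpinb6e, Serpinb10 and Serpinb12 were too low to test, with at most 28 counts in a library; Serpinb6e had 1 count in all, in TSDP 1. Among these untested genes, groups did not overlap for Serpinb12, at 6 or 7 counts in TSDP and 2 to 4 counts in Control, or for Serpinb6c, at 2 or 3 counts in TSDP and 3 to 6 counts in Control, by CPM.

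**Figure D5:**
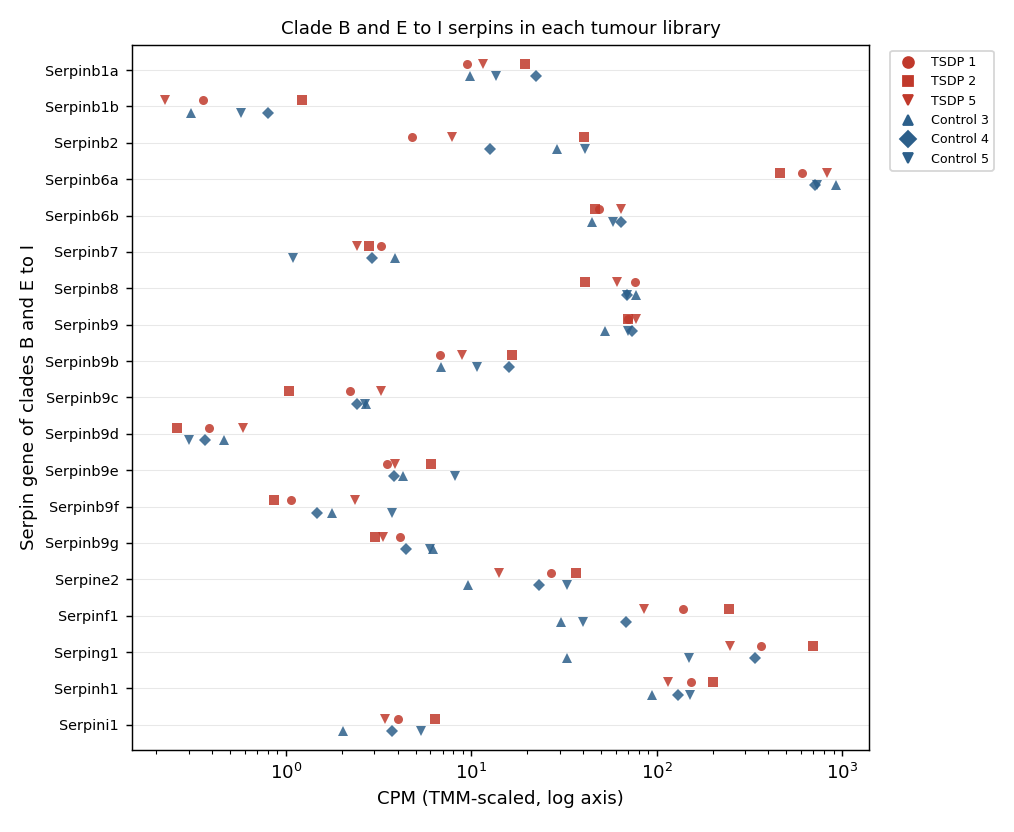
CPM of 19 tested serpins of clades B and E to I on a log axis, with TSDP libraries in red above Control libraries in blue for each gene. Serpinf1 is the 1 row in which the red points lie wholly to the right and Serpinb9g the 1 row in which they lie wholly to the left.

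Serpine2 overlapped between the groups. Serpine2, protease nexin 1, an inhibitor of thrombin and urokinase, had 26.7, 36.9 and 14.1 CPM in TSDP 1, 2 and 5, against 9.55, 23.2 and 33.0 CPM in Control 3, 4 and 5, with a log2 fold change of 0.24 ± 0.51 (± SE; adjusted p = 0.856, edgeR). Its lowest values were in Control 3 and TSDP 5. Plau, the urokinase, had 52.0, 74.0 and 68.4 CPM in TSDP 1, 2 and 5, against 71.0, 69.0 and 58.3 CPM in Control 3, 4 and 5, a log2 fold change of -0.03 ± 0.16 (± SE; adjusted p = 0.948, edgeR). Plat, the tissue plasminogen activator, had 171, 123 and 178 CPM in TSDP 1, 2 and 5, against 166, 125 and 173 CPM in Control 3, 4 and 5, a log2 fold change of 0.02 ± 0.20 (± SE; adjusted p = 0.966, edgeR). Both overlapped. Lrp1, the receptor that clears many serpin and protease complexes, had 1330.2, 1109 and 1326 CPM in TSDP 1, 2 and 5, against 2174, 1714 and 1818 CPM in Control 3, 4 and 5. Here all TSDP values lay below all Control values, with a log2 fold change of -0.60 ± 0.19 (± SE; adjusted p = 0.334, edgeR). Vtn, vitronectin, an adhesion protein of plasma made by liver, had 491, 1017 and 295 CPM in TSDP 1, 2 and 5, against 1.14, 404 and 57.8 CPM in Control 3, 4 and 5, with Control 4 within the TSDP range. Serpine3 had at most 4 counts.

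Serpinf1 (ENSMUSG00000000753), pigment epithelium-derived factor, a non-inhibitory serpin that restrains blood vessel growth and is made by liver and by stromal cells, had the smallest p of the family. It had 138, 245 and 85.4 CPM in TSDP 1, 2 and 5, against 30.6, 68.1 and 40.2 CPM in Control 3, 4 and 5. Each TSDP value exceeded each Control value, with means of 156 ± 81.4 CPM in TSDP tumours and 46.3 ± 19.5 CPM in Control tumours (SD, n = 3 each). The log2 fold change was 1.75 ± 0.46 (± SE; adjusted p = 0.326, edgeR), and DESeq2 gave 1.74 ± 0.42 with an adjusted p of 0.00324. Leaving out single libraries gave edgeR log2 fold changes of 1.25 to 2.14, and 0 of these passed the threshold. Per 1000 hepatocyte marker counts it was 4.42, 4.24 and 4.36 in TSDP 1, 2 and 5, against 227, 3.84 and 10.8 in Control 3, 4 and 5, so the TSDP values were nearly equal to one another and lay between those of Control 4 and Control 5. Fibroblast markers took 0.531, 0.779 and 0.428% of counts in TSDP 1, 2 and 5, against 0.306, 0.562 and 0.655% in Control 3, 4 and 5, and endothelial markers 0.0314, 0.0467 and 0.0276% of counts in TSDP 1, 2 and 5, against 0.0241, 0.0257 and 0.0195% in Control 3, 4 and 5.

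Serping1, the C1 inhibitor that controls the first proteases of complement and the kallikrein system, overlapped through Control 4. It had 366, 699 and 248 CPM in TSDP 1, 2 and 5, against 32.7, 337 and 148 CPM in Control 3, 4 and 5, a log2 fold change of 1.34 ± 0.81 (± SE; adjusted p = 0.494, edgeR), which was 2.27 without Control 4, 0.84 without Control 3 and 0.81 without TSDP 2. Among the proteases it stops, C1s1 had 122, 349 and 161 CPM in TSDP 1, 2 and 5, against 75.7, 254 and 124 CPM in Control 3, 4 and 5. C1ra had 84.9, 184 and 91.2 CPM in TSDP 1, 2 and 5, against 42.5, 116 and 55.3 CPM in Control 3, 4 and 5. Both were highest in TSDP 2 and lowest in Control 3. Klkb1, plasma kallikrein, a liver product, had 32.6, 88.0 and 26.0 CPM in TSDP 1, 2 and 5, against 0.958, 14.8 and 4.42 CPM in Control 3, 4 and 5, with a log2 fold change of 2.86 ± 0.99 (± SE; adjusted p = 0.339, edgeR). Serpinh1, the collagen chaperone HSP47 of the endoplasmic reticulum, had 154, 200.4 and 115 CPM in TSDP 1, 2 and 5, against 93.7, 131 and 152 CPM in Control 3, 4 and 5, a log2 fold change of 0.32 ± 0.26 (± SE; adjusted p = 0.606, edgeR). Its client collagens overlapped too, with 5 of 5 log2 fold changes positive and between 0.09 and 0.35; the smallest p belonged to Col4a2, at 0.16 ± 0.14, and Col3a1, at 0.35 ± 0.42 (± SE). Serpini1, neuroserpin, an inhibitor of tissue plasminogen activator, had 4.03, 6.33 and 3.43 CPM in TSDP 1, 2 and 5, against 2.04, 3.74 and 5.37 CPM in Control 3, 4 and 5.

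Serpini2, a serpin of the exocrine pancreas, was a single-library signal. It had 0, 0 and 1 counts in TSDP 1, 2 and 5, against 0, 771 and 1 counts in Control 3, 4 and 5. Control 4 held 23.6 CPM, and no other library exceeded 1 count. Ctrb1, chymotrypsinogen B, had 4, 1 and 3 counts in TSDP 1, 2 and 5, against 0, 134168 and 19 counts in Control 3, 4 and 5. Cpa1, carboxypeptidase A1, had 0, 0 and 0 counts in TSDP 1, 2 and 5, against 0, 40381 and 7 counts in Control 3, 4 and 5, and Ptf1a, a transcription factor of acinar cells, 0, 0 and 0 counts in TSDP 1, 2 and 5, against 0, 54 and 0 counts in Control 3, 4 and 5. Of the 14 acinar genes, 0 were absent in Control 4, while 8 to 11 had 0 counts in the TSDP libraries, 10 in Control 3 and 2 in Control 5. Cela1 was the 1 acinar gene well above 0 elsewhere, at 405 to 498 counts in TSDP and 569 and 585 counts in Control 3 and Control 5.

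Across the 30 genes fixed as serpin targets and partners, 29 had a count and 26 were tested, of which 16 had positive and 10 negative log2 fold changes, with a median of 0.28 and 0 past the threshold. At an unadjusted p under 0.05 there were 3 higher, where 8.6% of all genes were, and 1 lower, where 4.75% were. Those higher were Gzma, granzyme A, at 1.68 ± 0.49, Klkb1, and Ctsh, cathepsin H, at 0.53 ± 0.21 (log2 fold change ± SE); the lower one was Lrp1. Thbs1, thrombospondin 1, had the next lowest p on the negative side, with 338, 421 and 601 CPM in TSDP 1, 2 and 5, against 589, 554 and 1193 CPM in Control 3, 4 and 5. Plg, plasminogen, the liver-made precursor of plasmin, had 537, 1032 and 364 CPM in TSDP 1, 2 and 5, against 1.30, 368 and 49.8 CPM in Control 3, 4 and 5, with Control 4 just above TSDP 5. Ctsl and Ctsb, lysosomal cathepsins, had log2 fold changes of -0.15 ± 0.27 and -0.06 ± 0.18 (SE).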

How the data were processed

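Tumour RNA (6 samples, RNeasy) was sequenced from KAPA mRNA libraries, per the labels' protocols. The submitters' processing notes name Trimmomatic 0.38, HISAT2 2.1.0 and featureCounts 2.0.0. Not given in the sources used here: build, annotation, strand setting, read length and treatment of multi-mapping reads. The authors' deposited counts are raw whole numbers for 55536 Ensembl IDs, and all 55536 IDs are those of GENCODE M21, from which exon lengths and positions were taken. A second deposited table, a normalized signal (the counts divided by 1 constant per library), supplied gene symbols only. No column belonged to another sample (0).

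After filterByExpr (minimum count 10) and TMM scaling, group was tested by edgeR 4.0.16 under R 4.3.3, using glmQLFit (legacy deviances) and glmQLFTest, with Benjamini-Hochberg adjustment over 17423 genes. SE is the absolute log2 fold change over the root of F. CPM (counts per 1000000) use TMM-scaled sizes of the filtered libraries. The steps were tested on simulated data. Alternatives were other scaling factors and filters, DESeq2 1.42.0, limma 3.58.1 (voom) and leaving out each library.

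Members and gene lists were chosen with earlier results of these data known, and the acinar list after its values were seen. Named were members averaging at least 1 CPM, others at 0 in a group or without overlap, the usual partners of a member, and the 2 genes of smallest p per direction in each list. Markers of macrophages (0.101% of counts in TSDP, 0.0967% in Control), erythroid cells (0.00413% and 0.0237%), mesothelium (0.0193% and 0.0263%) and oncofetal tumour genes (0.00107% and 0.000766%) were also summed, as group means. The erythroid mean of Control rests on Control 3, at 0.0645%, against 0.00513% in Control 4 and 0.00156% in Control 5. Values of 1 tested member are not reported here. Without the strand setting, counts of genes that overlap on either strand are uncertain.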

Additional observations from a re-analysis of the deposited data

How the results depend on the processing

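The count of serpins past the threshold was 0 with edgeR under every scaling, filter and left-out library tried and with limma-voom, and 2 with DESeq2. Over all genes it was 1 without the filter on low counts, 620 with DESeq2 and 0 in the others. Serpins at an unadjusted p under 0.05 numbered 6 (4 higher, where 8.6% of all genes were). They numbered 11 without the filter (8 higher, 6% of all genes) and 10 with limma-voom (8 higher, 10.6%). When single libraries were left out they numbered 3 to 23: 23 without Control 4 (21 higher, where 13.4% of all genes were), 10 without Control 3 (10 higher, 6.58% of all genes), 3 without Control 5 (3 higher, 4.83%), 3 without TSDP 1 (2 higher, 5.53%) and 3 without TSDP 2 (1 higher, 4.04%). The others in each count were lower. Of all genes, 827 of 17423 were lower in the main fit, 1000 of 33296 without the filter and 803 of 17423 with limma-voom. Lower genes numbered 1001 of 17787 without Control 4, 334 of 17945 without TSDP 1 and 779 of 17745 without TSDP 2. Left-out libraries changed the number tested to 38 to 42. The median over the serpins was 0.26 to 1.46 and that of clade A 1.76 to 4.19 without single libraries, both highest without Control 4, and that of clade B -0.31 to -0.07. The log2 ratio of mean clade A CPM was 2.32, and 1.76 to 4.52 without single libraries; per hepatocyte marker count it was -0.42, and -0.70 to 0.14, turning positive without Control 3. The hepatocyte share differed by 1.78 to 3.55 percentage points without single libraries.

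Of 528 recomputed log2 fold changes of single serpins, 503 kept direction and side, 24 changed sign in 12 genes and 1 became a call (Serpinf1, DESeq2). With limma-voom Serpina3n was 0.79 and Serpinb1b -0.18. Leaving out libraries gave -0.84 to 2.20 for Serpina3n, -0.54 to 0.20 for Serpinb1a, -0.95 to 0.48 for Serpinb1b, -0.22 to 0.053 for Serpinb6b, -0.27 to 0.49 for Serpinb7, -0.0012 to 0.25 for Serpinb9, -0.53 to 0.28 for Serpinb9b, -0.68 to 0.063 for Serpinb9c, -0.22 to 0.36 for Serpinb9d, -0.57 to 0.12 for Serpinb9e, -0.13 to 0.63 for Serpine2 and -0.011 to 0.64 for Serpini1. Without changing sign, Serpina3k reached 4.99, Serpina3m 3.67, Serpina3h 1.61, Serpina3i 1.39 and Serpina3c 2.50 without Control 4, and leaving out libraries gave -0.56 to -0.14 for Serpinb6a, -0.49 to -0.068 for Serpinb8, -1.26 to -0.18 for Serpinb9f and 0.086 to 0.49 for Serpinh1. The cause of these changes was not tested. Of the 13 untested serpins, Serpini2 had 771 counts in 1 library and the others at most 50 in any. No paired analysis was made. The groups share only replicate number 5, and the labels do not say that a shared number marks a pair.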
